A study of Nematostella vectensis with 27 samples.

Results

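In the genome of the starlet sea anemone Nematostella vectensis, many neighbouring protein-coding genes are separated by less than 1 kb of sequence, and the accessible regions described here lay in those short gaps. Overlapping spans of protein-coding genes were merged, the gaps of 100 to 1000 bp between consecutive merged spans were taken, and an accessible region (a peak) was counted as a member when its centre fell in such a gap. The rule used gene and peak positions and no measured level. It gave 3326 peaks, 2.95% of the 112728 peaks in the list. They lay in 2613 of 5294 short gaps, and 8796 of the 19206 protein-coding genes on the 15 chromosomes bordered at least 1 short gap. Of the other peaks on the chromosomes, 76971 lay inside merged coding spans, 31655 in gaps over 1000 bp, 415 in gaps of 1 to 99 bp and 306 outside the outermost spans.

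The study profiled open chromatin in single nuclei with ATAC-seq, in which the transposase Tn5 inserts adapters into DNA that nucleosomes and other proteins leave free. Whole wild-type adults gave 16 libraries fixed in 0.1% methanol-free formaldehyde and 1 fresh library. Neurons sorted by fluorescence from polyps carrying the NvElav1::mOrange transgene, in which sequence of the neuronal gene elav1 drives the reporter, gave 2 fixed and 3 fresh libraries, and pools of 300 wild-type gastrulae at 26 hours after fertilization gave 1 fixed library (0.1% formaldehyde) and 1 fresh library. From adults, fresh nuclei were also used for 1 multiome experiment (an ATAC and an RNA library), and 1 single-cell RNA library was of the 5′ type. The deposited measurement was 1 peak list for the whole series. No peak in it carried a score, a strand, a library or a cell type, and the libraries that entered it are not given. Read depth is therefore unknown, adults, gastrulae and neurons could not be compared, and the error given is the spread over the 15 chromosomes, which are not biological replicates.

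Promoters are the stretches around gene starts where the transcription machinery assembles, and in animals they are among the most accessible sequences of the genome. When genes lie close together, a short gap can hold the promoters of both genes (starts facing each other), the promoter of 1 gene and the end of the next, or only the ends of both. The gene table used here gives the span of each gene without its strand, so a gap edge is the end of an annotated gene span and may be a start or an end of transcription. As a check of the coordinates, ends of coding genes that border no short gap were compared with every sequence of the list. On each of 15 of 15 chromosomes the own sequence matched best, with a peak centre within 250 bp of 39.9% to 48.9% of these gene ends, against 20.8% to 26.5% on the best of the other sequences.

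Short gaps held a peak far more often than their length alone would give. A peak centre lay in 49.4% of the 5294 short gaps in the deposited list, against a mean of 16.4% (range 14.9% to 17.8%) in 1000 lists in which all peaks of a chromosome were moved along it together by a random distance (circular shifts, which keep the spacing of the peaks). The ratio was 3.00, and the two-sided permutation p was 0.001, the smallest that these shifts can give. Over chromosomes the share averaged 49.5% ± 4.62 (SD, n = 15), with a lowest value of 34.7% on chromosome 12, a median of 50.3% and a highest value of 54.6% on chromosome 2. On 15 of 15 chromosomes it lay above the highest of that chromosome's shifted lists, and the ratio ran between 2.53 on chromosome 12 and 3.62 on chromosome 5. Counted per length of sequence, short gaps had 1.38 ± 0.118 peak centres per kb in the deposited list and 0.426 in the shifted lists, with a ratio of 3.25 (two-sided permutation p = 0.001). The short gaps together made up 2.40 Mb, 0.895% of the 268 Mb spanned by genes and peaks. Both ratios depended on which genes bounded the gaps and on the peak class. With all annotated genes as bounds the ratio of shares was 1.55, over 12859 gaps, and with the shorter peaks alone it was 1.45 (the list has peaks of 250 bp and peaks 1 bp shorter).

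Among the short gaps, the longer ones held a peak more often, and the shorter ones held more peaks for their length. The length classes run up to, but do not include, the upper number given, except that the last includes gaps of 1000 bp. Gaps of 100 to 200 bp held a peak in 33.7% ± 8.05 of cases in the deposited list (SD over 15 chromosomes, 379 of 1126 gaps), against 6.17% after shifting, which is a ratio of 5.45. For gaps of 200 to 300 bp the share was 47.9% ± 6.20 (416 of 868 gaps), against 10.2% after shifting, which is a ratio of 4.68. The step between these 2 classes was seen on 14 of 15 chromosomes, whereas the share at 300 to 400 bp, 45.6% ± 8.95, was below that at 200 to 300 bp on only 7 of them and the classes did not differ beyond this spread. At 400 to 500 bp the share was 50.6% ± 8.88 in the deposited list, against 17.4% in the shifted lists. At 500 to 750 bp it was 57.0% ± 9.03, against 22.3%, and at 750 to 1000 bp it was 61.9% ± 6.68, against 28.0%. The ratio of deposited to shifted share thus fell with gap length, to 2.21 in the longest of the 6 classes. This order was not kept with all annotated genes as bounds, where the 6 ratios were 2.70, 1.56, 1.89, 1.51, 1.25 and 1.41 in order of length and that at 500 to 750 bp missed the threshold (two-sided permutation, adjusted p = 0.0527).

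Density, counted per kb and not per gap, also fell with gap length. It was 2.34 centres per kb in gaps of 100 to 200 bp, 2.19 at 200 to 300 bp, 1.53 at 300 to 400 bp, 1.45 at 400 to 500 bp, 1.24 at 500 to 750 bp and 1.07 at 750 to 1000 bp. Density is not free of gap length either, since a gap of any length has the same number of edges and many members lay near an edge, as described below. The shortest of these classes exceeded the longest on 15 of 15 chromosomes. Not every neighbouring pair of classes could be told apart: density at 100 to 200 bp was above that at 200 to 300 bp on 8 of 15 chromosomes, and density at 300 to 400 bp was above that at 400 to 500 bp on 9 of 15. The limits of 100 and 1000 bp did not mark a break in this order. Gaps of 1 to 99 bp had 7.22 centres per kb and a share of 36.6%, against 2.14% in the shifted lists, and gaps over 1000 and up to 2000 bp had 0.960 per kb and a share of 72.7%, against 37.3%. Beyond 20000 bp the density fell to 0.149 per kb in the deposited list, against 0.407 in the shifted lists. There the share with a peak was 95.9%, against 94.1% in the shifted lists (two-sided permutation, adjusted p = 0.170). In all 10 other classes the adjusted p over the 11 classes was 0.0011.

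**Figure D1:**
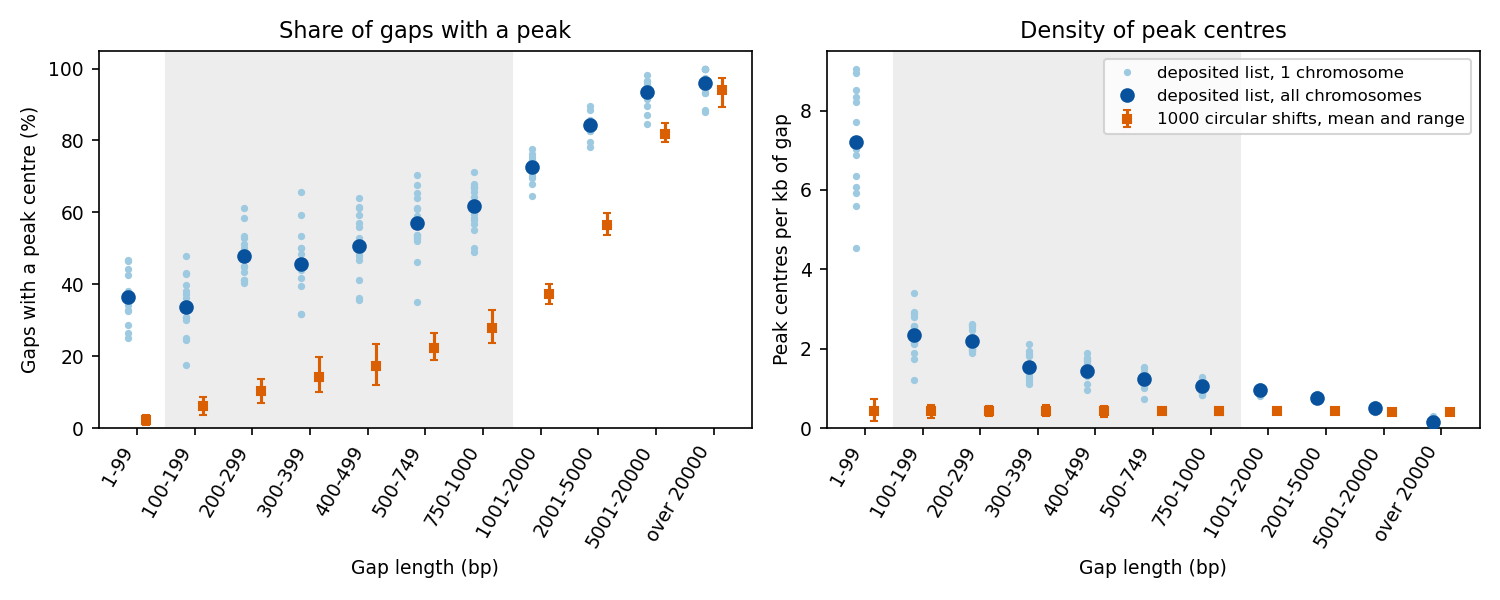
Share of gaps with a peak centre (left, %) and peak centres per kb of gap (right) by gap length (whole bp, limits included), with the short gaps shaded. Large blue points are the deposited list, small points its 15 chromosomes, and orange squares the mean and range of 1000 circular shifts: in the short gaps the share runs between 33.7% and 61.9% in the deposited list, while the density falls with gap length and stays near 0.426 per kb in the shifted lists.

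At the limits of the rule, gaps just inside and just outside were much alike on the short side. Of gaps of 100 to 109 bp, 38 of 105 held a peak (36.2%), and of gaps of 90 to 99 bp, 38 of 114 did (33.3%). On the long side the counts were small, with 19 of 39 gaps of 991 to 1000 bp (48.7%) and 25 of 33 gaps over 1000 and up to 1010 bp (75.8%). Of the 8 gaps of exactly 100 bp, 3 held a peak, and of the 11 gaps of 99 bp, 6 did. Taken by position among such ties, the first gap inside the lower limit, between LOC125561025 and LOC125561023 on chromosome 2 (bases 15735946 to 15736045), held no peak. The first outside it, 99 bp between LOC5518345 and LOC116601994 on the same chromosome (bases 1789382 to 1789480), held 1. At the upper limit, both gaps of 1000 bp held a peak, and 1 of the 2 gaps 1 bp longer did. The first gap of 1000 bp by position, between LOC5521344 and LOC5521343 on chromosome 2 (bases 9385745 to 9386744), held 1 peak, 361 bp from its left edge, and the first gap over it, between LOC5520355 and LOC5520354 on chromosome 1 (bases 9283778 to 9284778) held none.

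Within the gaps, the peaks lay nearer to the ends of the genes, and less often in the middle, than shifted peaks did. The distance of a member's centre to the nearer gap edge had a median of 44 bp, with quartiles of 17 and 135 bp. A centre lay within 100 bp of the nearer edge for 68.7% ± 2.47 of the 3326 members (SD over 15 chromosomes), against 41.5% of the shifted peaks that fell in these gaps, a ratio of 1.66 (two-sided permutation test, p = 0.001). When each gap was divided into 3 equal parts, the middle part held 20.6% ± 1.86 of the members, against 33.3% of the shifted peaks, a ratio of 0.617 (two-sided permutation p = 0.001). The shortest gaps were the exception, and every centre in a gap under 200 bp lies within 100 bp of an edge by construction. At 100 to 200 bp the middle part held 34.5% of members, against 33.4% in the shifted lists (two-sided permutation p = 0.844), whereas at 200 to 300 bp it held 11.3%. It held 12.8% at 300 to 400 bp, 16.8% at 400 to 500 bp, 21.5% at 500 to 750 bp and 23.1% at 750 to 1000 bp. The position differed between peak lengths. With peaks of 250 bp alone the ratios were 1.76 at the edges and 0.560 in the middle part. Among members of the shorter length alone, 37.5% lay within 100 bp of an edge, against 41.5% in the shifted lists (ratio 0.904, two-sided permutation p = 0.179).

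**Figure D2:**
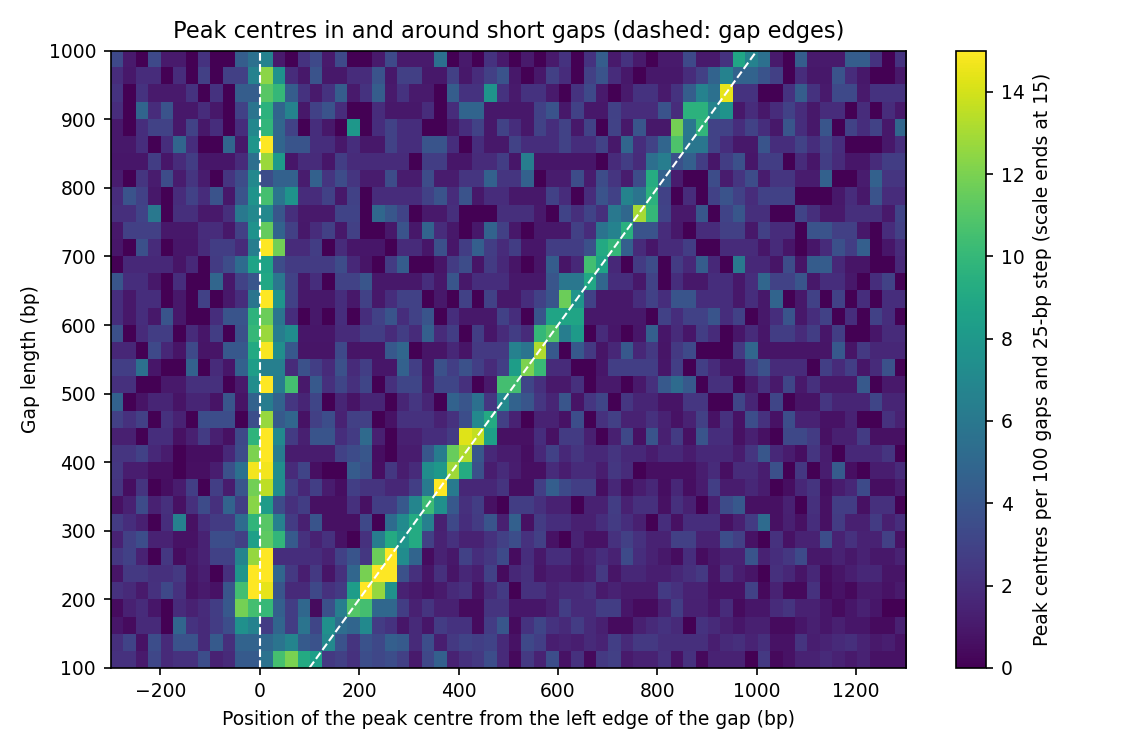
Peak centres per 100 gaps in steps of 25 bp, by position from the left edge of the gap (bp, horizontal) and by gap length (bp, vertical), with the gap edges dashed. The centres follow both edges over the whole range of lengths, and the bands meet in the gaps under 200 bp, where the middle part held 34.5% of members.

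Most members also reached into a flanking gene, as a peak of either length centred within 100 bp of an edge must. No shifted values were computed for the overlaps and the coverage given here. Of the 3326 members, 2167 (65.2%) overlapped 1 of the flanking gene spans, 281 (8.45%) overlapped both and 878 (26.4%) overlapped neither. Of the 281 that bridged the gap, 265 lay in gaps of 100 to 200 bp. The median member had 85 bases inside flanking genes. Peaks covered 51.0% of the bases in gaps of 100 to 200 bp and 54.8% of those at 200 to 300 bp, against 24.5% at 750 to 1000 bp. A gap was covered from end to end in 358 of 1126 cases (31.8%) at 100 to 200 bp and in 134 of 868 cases (15.4%) at 200 to 300 bp.

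Seen from the gene, the share of ends with a peak was highest beside gaps of 1 to 99 bp, at 65.8%, and lowest beside gaps over 20000 bp. A centre lay within 100 bp of the gap edge, on either side of it, at 43.1% ± 7.07 of edges of gaps of 100 to 200 bp and at 52.9% ± 4.56 at 200 to 300 bp (SD over 15 chromosomes). The share was 42.7% ± 9.01 at 300 to 400 bp, 37.2% ± 8.32 at 400 to 500 bp, 37.2% ± 6.55 at 500 to 750 bp and 33.3% ± 5.16 at 750 to 1000 bp. Over 1000 and up to 2000 bp it was 35.2% ± 3.60, and over 20000 bp it was 24.0% ± 7.34. In the shifted lists it was 8.29% to 8.58% in all 11 classes, and each deposited share had a two-sided permutation p of 0.001, adjusted over the 11 classes. The edges of gaps of 200 to 300 bp stood highest among the short gaps. In gaps under 200 bp a single peak can lie within 100 bp of both edges and is then counted at each. These centres were taken up to 100 bp on either side of the edge, a window in which a median offset near 0 is not evidence of closeness. The median offset was -1 bp at 200 to 300 bp (negative inside the gene), 3 bp at 300 to 400 bp, 9 bp at 400 to 500 bp and at 500 to 750 bp, and 12 bp at 750 to 1000 bp. The quartiles were -23 and 18.5 bp at 200 to 300 bp, and -12 and 38 bp at 750 to 1000 bp.

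**Figure D3:**
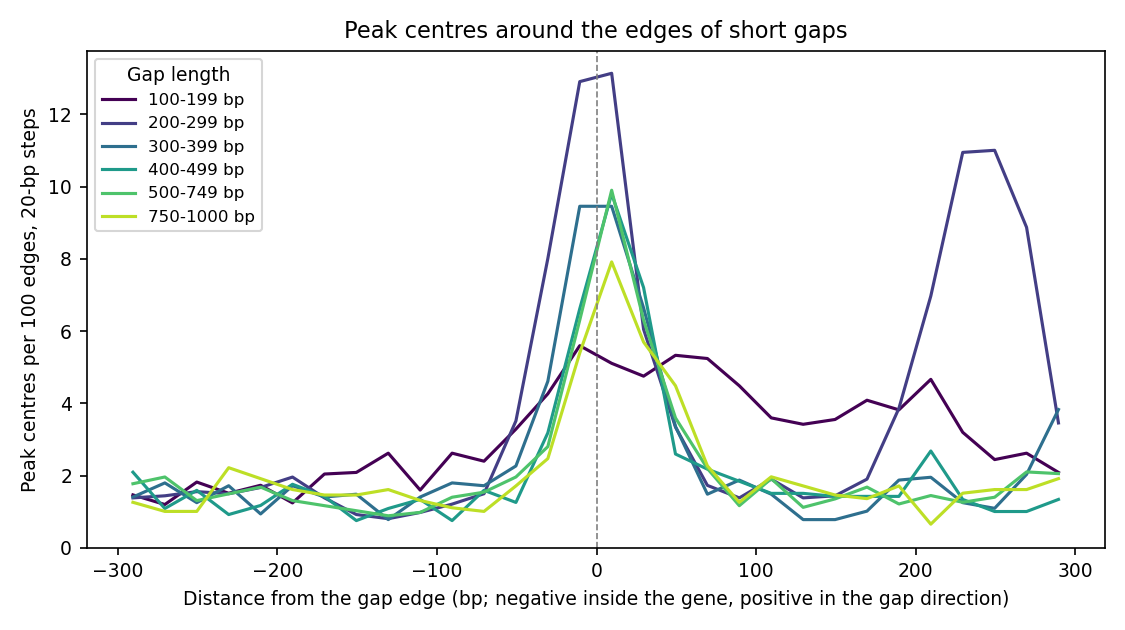
Peak centres per 100 gap edges in steps of 20 bp, by distance from the edge (bp, negative inside the gene), with a line for each of the 6 length classes. The lines of gaps of 200 bp or more peak at the edge, with 13.1 centres per 100 edges in the first 20 bp of the gap at 200 to 300 bp and 7.91 at 750 to 1000 bp; the second rise at 200 to 300 bp is the opposite edge.

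In the shorter gaps, peaks often stood at both edges. Both edges had a centre within 100 bp in 346 of 868 gaps of 200 to 300 bp (39.9%), 1 edge in 227 (26.2%) and neither in 295 (34.0%). In gaps of 750 to 1000 bp both edges were occupied in 118 of 992 (11.9%), 1 edge in 424 (42.7%) and neither in 450 (45.4%). In gaps of 200 bp or more a single centre cannot lie within 100 bp of both edges, so different peaks held them by construction. In gaps of 100 to 200 bp, 176 of the 317 gaps with both edges occupied had the same peak at each. If the edges of a gap were occupied independently, the product of the shares at left and right edges would give the number with both. The count of gaps with both was 1.42 times this product at 200 to 300 bp, 1.60 times at 300 to 400 bp, 1.49 times at 400 to 500 bp, 1.22 times at 500 to 750 bp and 1.07 times at 750 to 1000 bp. It exceeded the product on 15, 15, 14, 11 and 10 of 15 chromosomes in this order of lengths. For gaps over 1000 and up to 2000 bp the value was 0.992, with 8 of 15 chromosomes above the product. The product takes no account of how closely peaks stand to each other. In the shifted lists, 8.54% of edges and both edges of 1.36% of gaps were occupied at 200 to 300 bp, which is also above the product. At 750 to 1000 bp these shifted values were 8.58% and 1.60%. In both of these classes the shifted lists exceeded their product by a larger factor than the deposited list did. A count above the product is thus not particular to the edges of genes, and the factors were not compared by a test.

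Where different peaks marked the edges, the choice of centres within 100 bp of each edge fixes their spacing to within 200 bp of the gap length, so the spacing is given as a description. The median spacing between the centres was 256 bp in the 346 gaps of 200 to 300 bp, 363.5 bp in the 186 gaps of 300 to 400 bp and 414 bp in the 123 gaps of 400 to 500 bp. It was 601 bp in the 180 gaps of 500 to 750 bp and 849.5 bp in the 118 gaps of 750 to 1000 bp. Relative to the gap, the pair stood a median of 17 bp wider than the gap at 200 to 300 bp, and -1, -17, -15.5 and -25.5 bp in the longer classes, where a negative value means that the pair stood inside the gap. The list has a lower limit on spacing among peaks of 250 bp, since the starts of such neighbours were never less than 202 bp apart. The smallest value was 34 bp between neighbours of the shorter length and 151 bp between neighbours of unlike length. Of all neighbouring pairs, 2.10% started under 200 bp apart. In gaps of 100 to 200 bp, 141 had separate peaks at the edges, with a median spacing of 238 bp, which is wider than the gap. The part of the limit among peaks of 250 bp in the lower share with both edges occupied at that length (28.2%) was not tested.

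**Figure D4:**
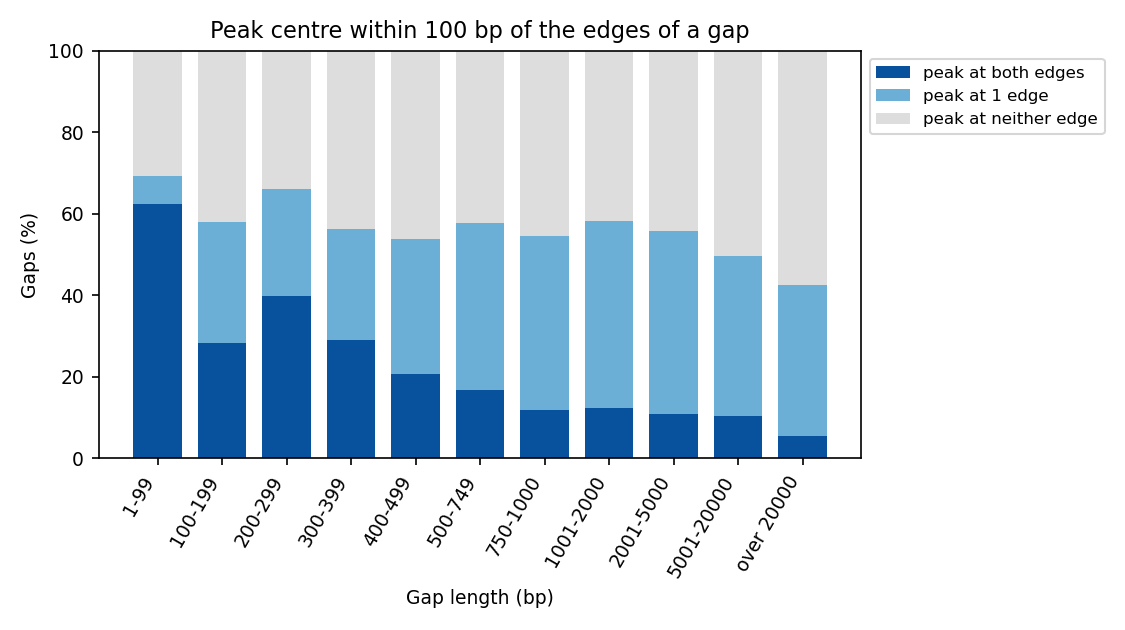
Share of gaps (%) with a peak centre within 100 bp of both edges, of 1 edge or of neither, by gap length (bp). Among gaps of 200 bp or more, the share with both edges occupied falls with length, with 39.9% at 200 to 300 bp and 11.9% at 750 to 1000 bp, while the share with neither stays between 34.0% and 46.2% up to 1000 bp.

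Peaks away from the edges were fewer, but also denser than in the shifted lists. In the 2063 gaps of 500 to 1000 bp, the sequence at least 100 bp from both edges held 843 centres, 0.751 ± 0.112 per kb (SD over 15 chromosomes), against 0.427 per kb after shifting (ratio 1.76, two-sided permutation p = 0.001). The interior density was 0.761 ± 0.206 per kb in the 298 gaps with a peak at both edges, 0.856 ± 0.168 in the 861 gaps with a peak at 1 edge and 0.648 ± 0.157 in the 904 gaps with none. These 3 values overlapped within their spread over chromosomes.

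Most peak-bearing gaps held a single peak. There were 1989 gaps with 1 centre, 539 with 2, 81 with 3 and 4 with 4, so that 23.9% of the gaps with a peak held more than 1. The median length was 463 bp for gaps with a peak and 341 bp for gaps without. The 4 gaps with 4 centres were 775 to 987 bp long. The shortest was that between LOC116611690 and LOC5503896 on chromosome 8 (bases 10310993 to 10311767), with centres 5, 234, 409 and 730 bp from its left edge. The gap between LOC5518899 and LOC5518953 on chromosome 7 (892 bp, bases 10720212 to 10721103) had centres 6, 307, 547 and 853 bp from the left edge. The gap between LOC5510442 and LOC5510441 on chromosome 14 (893 bp, bases 8514939 to 8515831) had centres at 15, 298, 599 and 872 bp. In these 3 gaps each outer peak lay within 44 bp of an edge, and on chromosome 14 the distances were 15 and 20 bp. The gap between LOC5508885 and LOC125561972 on chromosome 4 (987 bp, bases 12302802 to 12303788) differed, since its centres at 140, 297, 542 and 695 bp all lay more than 100 bp from an edge. The shortest gap with 3 centres was that between LOC5508285 and LOC5508275 on chromosome 15 (350 bp, bases 1692199 to 1692548), with centres 8, 180 and 338 bp from the left edge.

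The shortest peak-bearing gaps were spanned by their single peak. The gap between LOC5519390 and LOC5519359 on chromosome 8 (100 bp, bases 9676197 to 9676296) had its centre 41 bp from the left and 58 bp from the right gene. In the gap between LOC5511637 and LOC5511632 on chromosome 9 (100 bp, bases 2729632 to 2729731) these distances were 42 and 57 bp. In the 101-bp gap between LOC5520856 and LOC125556740 on chromosome 7 (bases 6866076 to 6866176) they were 41 and 59 bp, and in the 101-bp gap between LOC116604567 and LOC5522092 on chromosome 10 (bases 6037908 to 6038008) they were 59 and 41 bp. The fifth, between LOC5519782 and LOC5519783 on chromosome 6 (100 bp, bases 9506696 to 9506795), had its centre nearer the right gene, at 88 and 11 bp. All 5 peaks were 250 bp long and reached into both genes, as any peak of that length centred in a gap of 100 or 101 bp must. The gene table names these genes by number only, so what they encode is not given here.

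Genes with a short gap on each side tended to carry a peak at a single end. Of 1600 genes of at least 1000 bp that stood alone in their merged span between short gaps, 1146 (71.6%) had a centre within 100 bp of 1 end only, 56 (3.50%) had a centre at both ends and 398 (24.9%) at neither. Independent ends would give 247 genes with both, and the count with both lay below that number on 15 of 15 chromosomes. The share with a peak at 1 end averaged 70.6% ± 5.53 over chromosomes. Gaps of 200 to 1000 bp on both sides, which leave room for a peak at each edge, gave 32 of 998 genes with both ends, 746 with 1 end and 220 with neither, where independence would give 164 with both. Genes between gaps over 1000 bp had the same pattern at other levels: 217 of 5107 (4.25%) had both ends, 2790 (54.6%) 1 end and 2100 (41.1%) neither, where independence would give 509 with both. The share with a peak at 1 end averaged 54.5% ± 4.75 over chromosomes in these genes. Both ends of a gene thus carried a peak less often than the product of their shares. Both edges of gaps of 200 to 500 bp did so more often than theirs. In the shifted lists, however, both edges of such gaps exceeded the product by a larger factor still. Gene ends were not counted in shifted lists, so a contrast between gene ends and gap edges was not tested. The share with both ends depended on the distance allowed, with 1.13% of the 1600 genes at 50 bp and 14.2% at 200 bp.

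**Figure D5:**
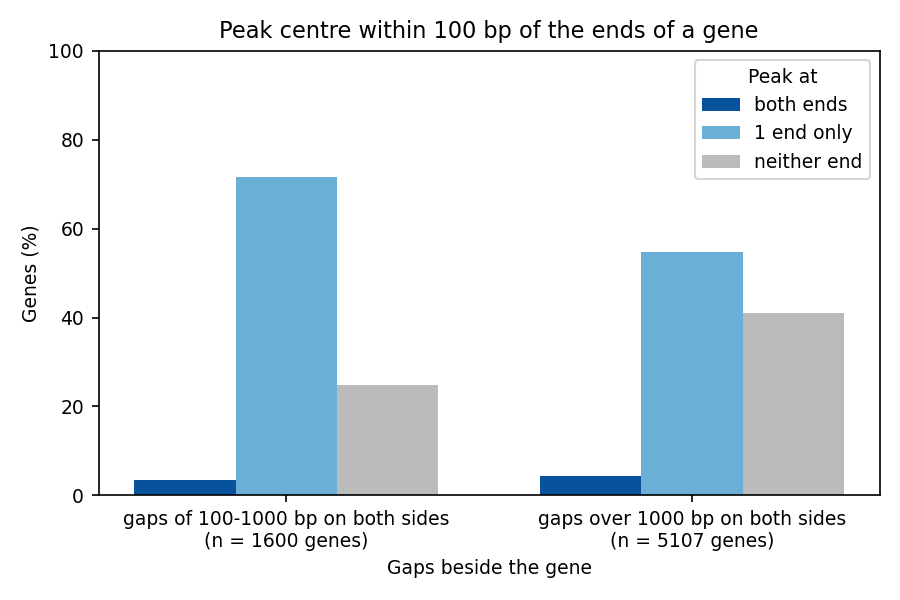
Share of genes (%) with a peak centre within 100 bp of both ends, of 1 end or of neither, for genes between gaps of 100 to 1000 bp (left, 1600 genes) and between gaps over 1000 bp (right, 5107 genes). A peak at 1 end only is the most frequent class in both sets, with 71.6% and 54.6% of genes.

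The span of the flanking gene varied with the presence of a peak. When the 10588 edges of short gaps were divided into 4 equal classes by the span of the gene at the edge, a centre lay within 100 bp of 30.8% of edges in the class of the shortest genes (0.309 to 3.66 kb), 40.1% in the second, 46.0% in the third and 46.9% in the class of the longest genes (14.3 kb and over). These classes include a window of chromosome 12, described below, with many short genes and few peaks in its short gaps. Values without that window and a spread over chromosomes were not computed for them. Among genes with 1 annotated transcript the same classes gave 30.8%, 40.9%, 46.0% and 49.3%, and among genes with 2 or more they gave 31.1%, 38.0%, 46.0% and 45.2%. The number of transcripts showed no such order. A peak stood at 39.8% ± 4.50 of edges of genes with 1 transcript, 45.3% ± 4.27 with 2, 41.5% ± 5.45 with 3 or 4 and 37.7% ± 9.77 with 5 or more.

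Gaps without a centre were not all far from a peak. Of the 2681 short gaps without a member, 831 (31.0%) had a centre within 100 bp of an edge on the gene side. The median distance from such a gap to the nearest centre was 363 bp. With these gaps included, 3444 of 5294 short gaps (65.1%) had a centre inside or within 100 bp, and 1196 (22.6%) had none within 500 bp.

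The peaks in short gaps were mostly of the 250-bp class. Of the 3326 members, 392 (11.8%) were of the shorter length, against 28.0% of the other peaks on the chromosomes. By chromosome these shares averaged 12.2% ± 2.91 for members and 28.7% ± 4.44 for other peaks (SD, n = 15), and members had the lower share on 15 of 15 chromosomes. The difference was much smaller beside gene ends. Of the 1784 members within 50 bp of the end of a coding gene, 5.33% were of the shorter length, against 6.95% of the 7192 other peaks within that distance. What the difference of 1 bp stands for in the authors' peak calling is not given in the sources used here. Members had a nearer neighbour than other peaks, with a median distance to the next centre of 376 bp (quartiles 269 and 618 bp), against 501 bp (quartiles 315 and 926 bp).

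Of the 5294 short gaps, 3255 (61.5%) were next to another short gap with a single merged span between them. Short gaps made up 33.2% of all gaps, so many would be neighbours in any order. The share that a random order would give was not computed, and the 61.5% does not show that short gaps cluster. The share with a peak was 47.7% in runs of 3 or more, 49.3% in runs of 2 and 50.8% in gaps that stood alone. The runs of 3 or more include the 56 gaps of chromosome 12 described next, none of which held a peak. The runs with the highest counts of gaps, chosen after their values were seen, were all without a peak. These 3 runs, of 27, 15 and 14 gaps, lay between bases 2315407 and 2410004 of chromosome 12, and 0 of their 56 gaps held a centre. The nearest centre to any of these gaps was 2427 bp away, and the whole stretch of 94.6 kb held 1. Whether reads can be placed uniquely in this stretch was not tested, so a count of 0 there does not show closed chromatin. Its 68 protein-coding genes had a median span of 0.466 kb, against 6.18 kb for all coding genes, and 64 of them had a single annotated transcript. The runs of 8 or 9 gaps elsewhere did hold peaks, for example 6 of 9 gaps on chromosome 3 (bases 15435932 to 15524757) and 6 of 8 gaps on chromosome 4 (bases 7992797 to 8064770).

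The share of chromosome 12 was also computed without this stretch and without the window around it, both chosen after their values were seen. The window from base 2000001 to 3000000 of that chromosome had 101 short gaps, of which 2 held a peak (1.98%), the lowest share of the 232 windows of 1 Mb with 10 or more short gaps. The next lowest window had 20.0%, the median window 50% and the highest 77.8%. The same window held 287 peak centres in all, against a median of 410 for windows of chromosome 12, and 197 coding genes with a median span of 0.605 kb. The share of chromosome 12 was 34.7% over all 377 gaps, 40.8% without the 3 runs and 46.7% over the 276 gaps outside the window. The other 14 chromosomes lay between 47.5% and 54.6%, with no window left out of them. Leaving out gaps picked for their few peaks raises a share by construction, and the cause of the low share was not tested. Over all chromosomes the ratio of shares was 3.04 without this window.

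Some short gaps also overlap an annotated gene of another kind, and those with a transfer RNA gene stood out after their values were seen. Transfer RNA genes are transcribed by RNA polymerase III from promoter elements inside the gene. All 17 short gaps that contain a tRNA gene held a peak, 23 in all, and the median length of these gaps was 556 bp. In each of them a centre lay within 61 bp of the tRNA gene, with a median of 19 bp, and in 5 it lay inside the gene. Among these 5 were Trnaf-gaa, a phenylalanine tRNA gene (chromosome 1, bases 9422269 to 9422370), Trnag-ccc for glycine (chromosome 7, bases 2879670 to 2879741) and Trnae-cuc for glutamate (chromosome 9, bases 3823263 to 3823334). The gap with the most peaks, 3 in 971 bp between LOC5522104 and LOC5521986 on chromosome 10, holds the serine tRNA gene Trnas-aga (bases 5793699 to 5793780), 25 bp from the nearest centre. Of the other 9518 annotated tRNA genes, 503 (5.28%) had a centre within 250 bp. The setting of these genes differed, however, since all 17 in short gaps had no other tRNA gene within 5 kb. Among 52 tRNA genes that likewise stood alone, outside coding spans and short gaps, 43 (82.7%) had a centre within 100 bp.

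Gaps that overlapped a long non-coding RNA (lncRNA) gene numbered 90, and 56 of them (62.2%) held a peak. Many of these genes were not contained in the gap and ran on beside or across the flanking coding genes. An example is LOC116619160 on chromosome 2 (bases 11925427 to 11952241), which overlapped a gap of 459 bp. Their median length was 582 bp, against 398 bp for the 5183 short gaps with no other annotated gene, of which 49.0% held a peak. The gaps with a lncRNA were thus longer, and at 500 to 750 bp the share over all short gaps was 57.0%. The 3 gaps with a pseudogene held a peak in 2 cases, and the 1 gap with a small nucleolar RNA gene held none.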

How the data were processed

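The authors deposited 1 list of peak positions for the whole series. Its columns of starts and ends are genome coordinates, treated as BED intervals (0-based starts) and printed 1-based. bcl2fastq, Cell Ranger 7.0.0 and Cell Ranger ARC 2.0.1 are named in the submitters' processing notes, and the peak caller, its threshold and the merging of libraries are not given in the sources used here. No library has values of its own, so depth is unknown and no sample entered a test.

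Gene spans were those RefSeq lists for jaNemVect1.1. The list names no build; its sequences were taken as chromosomes 1 to 15 in name order and checked against gene ends. A peak belongs to the gap that holds its centre. Expected values came from 1000 circular shifts within each chromosome (seed 20), with two-sided permutation p-values and Benjamini-Hochberg adjustment, in Python 3.11.15 with NumPy 2.4.6 and numba 0.67.0. The code was tested on simulated data. The spread is the SD over 15 chromosomes.

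The gaps named are the 5 with the most centres, the 5 shortest with a centre, and those at each length limit. Members and lists were chosen with earlier results of these data known. The table gives no strand, product names or sequence, so gene orientation, gene groups by function and motifs were not analysed here.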

Additional observations from a re-analysis of the deposited data

How the results depend on the processing

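Of 47 alternatives to the tested results, leaving out single chromosomes aside, 43 kept the direction and the side of the threshold. The ratio of deposited to shifted shares of short gaps with a peak ranged between 1.45 with the shorter peaks alone and 3.93 with gaps of 100 to 500 bp. It was 3.70 with peaks of 250 bp alone, 2.91 when at least 50% of the peak had to lie in the gap, 2.82 with shifts limited to sequence within 10 kb of a peak, and 2.98 to 3.04 when each chromosome was left out in turn. The corresponding ratio of densities ranged between 1.43 and 4.28, and 3.22 to 3.29 over the chromosomes left out. With the shorter peaks alone, the ratio for centres within 100 bp of an edge was 0.904 (two-sided permutation p = 0.179) and that for the middle part of the gap 1.05 (p = 0.580). With all annotated genes as bounds, the ratio of shares in gaps of 500 to 750 bp was 1.25 and missed the threshold (two-sided permutation, adjusted p = 0.0527). With peaks of 250 bp alone, the ratio of shares in gaps over 20000 bp was 0.896 and passed the threshold. Genes between short gaps had a peak at 1 end in 56.3% of cases within 50 bp, and at both ends in 1.13% within 50 bp and 14.2% within 200 bp. The comparison of gene ends itself (71.6% at 1 end, 3.50% at both), these distances and the fit without the window of chromosome 12 were chosen after seeing the data. The cause of these differences was not tested. The comparison by gene orientation was not run for want of strand. No paired analysis was possible because there is 1 list for the whole series and it carries no replicate. Depth limits cannot be stated.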
